A study of Bos taurus with 4 samples.

Results

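In bovine embryos 40 transcripts were near silent in control libraries, were present after knockdown of KDM5 genes, and differed between the controls in a fixed order. The connexin gene GJA4 also met the rule and was left out of it by name. A member is a protein-coding RefSeq (NM) row with less than 1 FPKM in both control libraries, a higher value in control replicate 1 than in control replicate 2, at least 1.5 FPKM in both knockdown libraries, and a difference of at least 1 between the group means of log2(FPKM + 1). FPKM counts sequenced fragments relative to the length of a transcript and the size of a library, so levels can be compared between genes. Collagen genes were left out by the rule but none met its other conditions. The 40 members came from 14517 rows, of which 13394 are NM rows. The rule used the values of all 4 libraries and the knockdown contrast itself. That the members were low in control and higher in knockdown is therefore the way they were chosen and not a finding, and a test of that contrast supports nothing about them.

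Polyadenylated RNA was sequenced from Bos taurus embryos with 8 to 16 cells, collected 3 days post insemination. Zygotes had been injected with negative control small interfering RNAs (NC, 2 libraries) or with small interfering RNAs against KDM5A, KDM5B and KDM5C (KDM5_KD, 2 libraries). The treatment label of KDM5_KD replicate 2 names KDM6A, KDM6B and KDM6C instead, so it goes against the title that puts this library in the knockdown group. KDM5A was at 28.4 and 27.1 FPKM in the control pair and at 10.5 and 10.1 FPKM in KDM5_KD replicates 1 and 2, KDM5C at 28.1 and 40.6 against 15.1 and 17.8, and KDM6A at 7.63 and 11.3 against 7.90 and 9.29. KDM5B was not analysed here. The number of embryos behind each library, their breed and their sex are not given in the labels.

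KDM5 enzymes erase methylation of lysine 4 on histone H3 (H3K4), and trimethylation at this residue marks the promoters of active and poised genes. The 8- to 16-cell stage is the period in which the bovine embryo begins to transcribe its own genome on a large scale while RNA stored in the egg is lost. Cumulus cells, the somatic cells that surround the egg, carry RNA of their own. In RNA from whole embryos, fewer cells of a type and less RNA per cell cannot be told apart.

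The FPKM of the libraries summed to between 283347 and 322267, and between 8427 and 9160 transcripts were at 1 FPKM or more. Absolute depth is not known. In rows with values between 0.001 and 0.3 FPKM, the commonest ratio between libraries put the relative depth of NC replicate 1 at 0.68 of that of NC replicate 2, and KDM5_KD replicates 1 and 2 at 0.8 and 0.78 of it. Control replicate 1, in which every member was higher by the rule, was thus the shallower of the control libraries, and the part of depth in that order was not tested. The median difference of all 8926 NM rows with a mean of at least 1 FPKM was 0.09. Median-ratio scaling moved it by -0.13 and quantile normalization by -0.14.

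The selection narrowed in steps, and the order of the control libraries changed along them. Both NC libraries were under 1 FPKM in 4512 NM rows. Among the rows of this set in which the NC values were unequal, 1851 were higher in NC replicate 1 and 1519 in NC replicate 2, or 54.9% against the remainder. Of the 4512 rows, 105 were at 1.5 FPKM or more in both knockdown libraries, and among these NC replicate 1 was the higher control in 87 and NC replicate 2 in 17 (83.7% of the unequal rows). With the difference of at least 1 added, 54 rows were left, with NC replicate 1 higher in 41, NC replicate 2 higher in 12 and 1 tie. The same rule with the control order reversed and the same exclusions gave 11 rows. The members just inside the difference of 1 were ACTC1 (1.025), NEDD9 (1.033) and ANXA3 (1.034). Just outside it were VLDLR (0.99), RBKS (0.98) and FBXW8 (0.97), which met all other conditions. CXCL12, SLC2A6 and SAMD9 missed the control limit at 1.003, 1.011 and 1.013 FPKM in NC replicate 1. TMTC1 and NDNF missed the knockdown limit with a lower knockdown value of 1.499 FPKM and C1QTNF3 with 1.36 FPKM.

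The 11 rows with the reversed control order included TRH, the precursor of thyrotropin-releasing hormone, listed at 0 and 0.0411 FPKM in control and at 41.0 and 36.1 FPKM after knockdown. In the opposite direction, with both knockdown libraries under 1 FPKM, both NC libraries at 1.5 or more and a fall of at least 1, only 2 NM rows were found. ATP6V0D2 had 1.74 and 4.45 FPKM in control embryos and 0.881 and 0.521 FPKM in KDM5_KD. LOC780876 had 294.7 and 342 FPKM in control embryos and 5.84e-06 and 3.85e-06 FPKM in KDM5_KD. Values of this size also occur in genes with several rows, such as a GPX4 row at 4.70e-06 FPKM in NC replicate 1. Whether reads were divided between similar transcripts was not tested, so the fall of LOC780876 is uncertain.

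Over the 40 members the median level was 0.742 FPKM in NC replicate 1, 0.384 in NC replicate 2, 2.75 in KDM5_KD replicate 1 and 2.90 in KDM5_KD replicate 2. Their summed level was 28.9 and 15.0 FPKM in the NC libraries and 125 and 135 FPKM after knockdown. Most stayed low: 36 of the 40 had a mean under 4 FPKM in the knockdown. The differences on the log2(FPKM + 1) scale ran from 1.02 to 2.79 with a median of 1.27, 31 were under 1.5 and 3 were 2 or more. All 40 passed the filter on a mean of at least 1 FPKM. In the limma fit over the 8970 transcripts that passed it, 0.190% were higher at an adjusted p under 0.05 (0.279% in either direction), and 3 of the 40 members were among them, namely R3HDM2, LOC112445785 and MRO. With a library left out, the median difference of the members lay between 1.12 (without NC replicate 2) and 1.44 (without NC replicate 1). Since the rule used this contrast, nothing is read from the 3 called members or from these medians. Both knockdown libraries lay above both NC libraries for 31.5% of all NM rows and, by the rule, for all members.

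**Figure D1:**
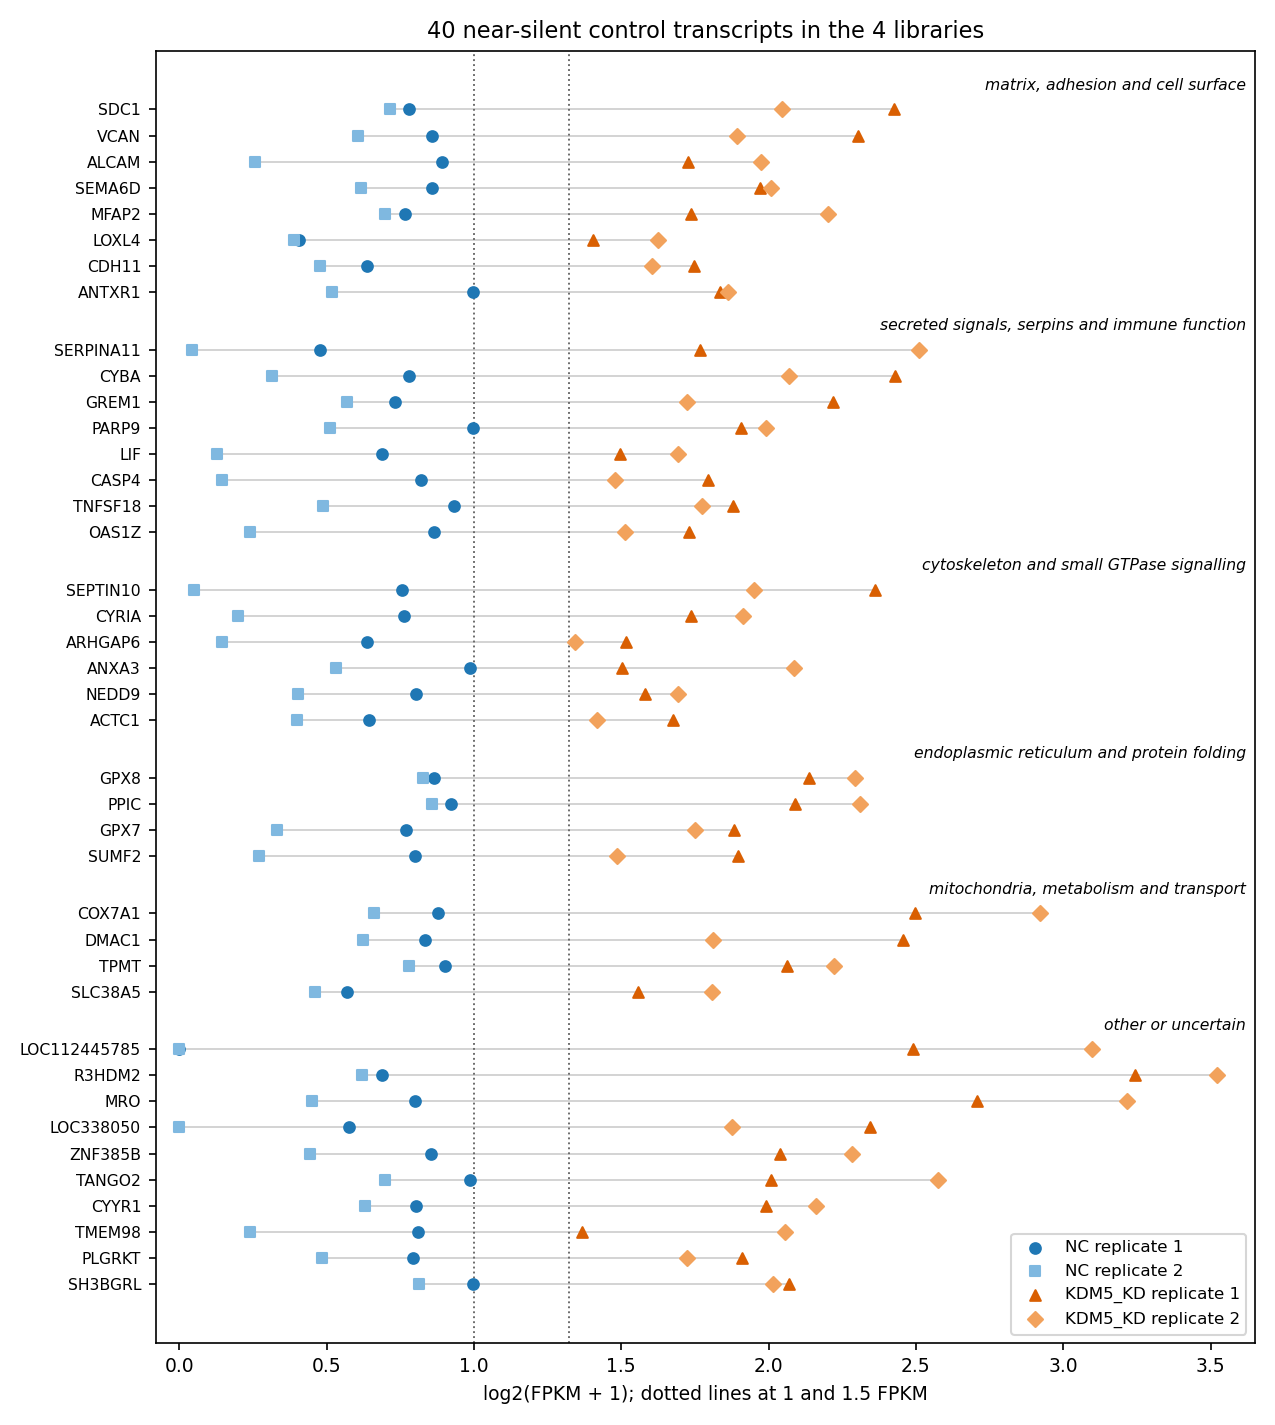
Level of each of the 40 members as log2(FPKM + 1) in NC replicates 1 and 2 (blue circles and squares) and KDM5_KD replicates 1 and 2 (orange triangles and diamonds), grouped by the role of the gene product; dotted lines mark 1 and 1.5 FPKM. By the rule every NC point lies left of the first line and every KDM5_KD point right of the second; R3HDM2, LOC112445785 and MRO reach furthest right and most members stay below 4 FPKM.

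Genes of the extracellular matrix, of adhesion and of the cell surface made up 8 of the 40. These roles were assigned after the names of the members were known. SDC1, which encodes the heparan sulfate proteoglycan syndecan-1, was at 0.717 and 0.642 FPKM in the control pair and at 4.37 and 3.13 FPKM after knockdown. VCAN, which encodes versican, a large proteoglycan of the matrix around the egg and many other cells, was at 0.811 and 0.524 against 3.93 and 2.71 FPKM. Both were higher in KDM5_KD replicate 1 than in replicate 2. The adhesion receptor gene ALCAM was at 0.857 and 0.195 against 2.31 and 2.93 FPKM. SEMA6D, a transmembrane semaphorin gene, had 0.810 and 0.535 against 2.92 and 3.02 FPKM, so its knockdown libraries were nearly equal. MFAP2, a component of elastic microfibrils, had 0.702 and 0.621 against 2.33 and 3.60 FPKM. LOXL4, a lysyl oxidase that cross-links collagen and elastin, had the lowest knockdown levels of this group in replicate 1, with 0.325 and 0.309 against 1.65 and 2.09 FPKM. Its control libraries were almost the same. CDH11, a cadherin of mesenchymal cells, was at 0.557 and 0.391 against 2.35 and 2.04 FPKM. ANTXR1, a receptor that binds matrix proteins, was at 0.997 and 0.433 against 2.57 and 2.64 FPKM, which placed its NC replicate 1 value just under the limit of 1.

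Signals, serpins and genes of immune function were another 8. LIF, a cytokine that acts through the receptor pair LIFR and IL6ST, was at 0.610 and 0.0926 FPKM in control embryos and at 1.82 and 2.23 FPKM in KDM5_KD. LIFR, its receptor, stayed between 1.08 and 1.44 FPKM in all 4 libraries. GREM1, a secreted antagonist of bone morphogenetic proteins that cumulus cells make in response to the oocyte, had 0.661 and 0.483 against 3.66 and 2.30 FPKM. TNFSF18, a ligand of the tumour necrosis factor family, had 0.908 and 0.402 against 2.68 and 2.42 FPKM. SERPINA11, of the serpin family of protease inhibitors and relatives, was at 0.391 and 0.0297 FPKM in control embryos and at 2.41 and 4.70 FPKM in KDM5_KD. The mean of its knockdown libraries was 16.9 times that of its NC libraries. It also had the largest difference between the knockdown libraries of any member (0.74 on the log2 scale, replicate 2 higher).

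CASP4, an inflammatory caspase gene, was at 0.764 and 0.104 against 2.47 and 1.79 FPKM. CYBA, which encodes the p22phox subunit of NADPH oxidases, was at 0.716 and 0.243 against 4.38 and 3.20 FPKM. The products of NOX and NCF genes, with which p22phox forms active enzymes, had little RNA in any library: 9 other rows of this complex were under 1 FPKM in all 4. PARP9, an ADP-ribosyltransferase gene induced by interferon, had 0.995 and 0.425 against 2.75 and 2.98 FPKM. OAS1Z, of the oligoadenylate synthetases that sense double-stranded RNA, had 0.819 and 0.181 against 2.32 and 1.86 FPKM. Its close relatives OAS1X (5.22 and 1.56 against 16.9 and 12.5 FPKM) and OAS1Y (13.3 and 3.18 against 25.4 and 29.5 FPKM) were more abundant, and reads of such paralogs may be divided between their rows, so OAS1Z is uncertain. In these 3 genes NC replicate 1 was the higher control and both knockdown libraries were above it.

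Of the 6 members of the cytoskeleton and of small GTPase signalling, SEPTIN10 had the widest control gap of all 40 members. It was at 0.687 and 0.0361 FPKM in the control pair and at 4.14 and 2.86 FPKM after knockdown, and septins are GTP-binding proteins that form filaments. CYRIA, whose product binds the GTPase Rac1, was at 0.696 and 0.148 against 2.33 and 2.77 FPKM. ARHGAP6, which encodes a GTPase-activating protein, was at 0.556 and 0.104 against 1.86 and 1.54 FPKM and so lay just above the knockdown limit in replicate 2. NEDD9, a scaffold of focal adhesions, was at 0.747 and 0.322 against 1.99 and 2.23 FPKM. ANXA3, a calcium-dependent membrane-binding annexin, was at 0.983 and 0.447 against 1.83 and 3.24 FPKM. ACTC1, the cardiac form of alpha actin, was at 0.562 and 0.319 against 2.19 and 1.67 FPKM. In this group the position of NC replicate 1 between NC replicate 2 and the knockdown mean had a median of 34.0%.

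Another 4 members act in the endoplasmic reticulum or in protein folding. GPX7 and GPX8 are the glutathione peroxidases that reside in the endoplasmic reticulum. GPX8 was at 0.822 and 0.776 FPKM in control embryos and at 3.39 and 3.91 FPKM in KDM5_KD, and GPX7 at 0.706 and 0.259 against 2.68 and 2.37 FPKM. PPIC, which encodes the prolyl isomerase cyclophilin C, had 0.895 and 0.814 against 3.26 and 3.96 FPKM. SUMF2, a paralog of the enzyme that activates sulfatases, had 0.740 and 0.207 against 2.73 and 1.80 FPKM. GPX8 and PPIC had nearly equal controls, while GPX7 and SUMF2 were clearly lower in NC replicate 2 than in replicate 1.

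Among mitochondrial, metabolic and transport genes, COX7A1 was the most abundant. It encodes the cytochrome c oxidase subunit typical of heart and skeletal muscle, and was at 0.839 and 0.580 FPKM in NC (0.709 ± 0.183, SD, n = 2) and at 4.64 and 6.58 FPKM in KDM5_KD (5.61 ± 1.37, SD, n = 2). COX7A2, the form found in most tissues, was far more abundant in all libraries, at 632 and 754 FPKM in control embryos and 648 and 653 FPKM in KDM5_KD. DMAC1, an assembly factor of respiratory complex I, had 0.783 and 0.539 against 4.48 and 2.51 FPKM, the largest excess of KDM5_KD replicate 1 over replicate 2 among the members. The thiopurine methyltransferase gene TPMT was at 0.869 and 0.718 against 3.17 and 3.67 FPKM. SLC38A5, a transporter of glutamine and related amino acids, was at 0.484 and 0.377 against 1.94 and 2.50 FPKM. All 4 had an NC replicate 1 value close to that of replicate 2 relative to the knockdown levels, with positions between 8.78% and 14.0%.

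The remaining 10 members include the 3 with the largest differences. R3HDM2, which encodes a protein with an R3H nucleic acid-binding domain, was at 0.610 and 0.536 FPKM in NC (0.573 ± 0.0523, SD, n = 2) and at 8.48 and 10.5 FPKM in KDM5_KD (9.49 ± 1.43, SD, n = 2). The knockdown mean was 16.6 times the NC mean. MRO (maestro), a gene first described in developing gonads, had 0.739 and 0.366 against 5.54 and 8.30 FPKM, or 12.5 times. LOC112445785, a protein-coding gene without a name, was listed at 6.00e-06 and 1.92e-06 FPKM in control embryos and at 4.61 and 7.55 FPKM in KDM5_KD. Both control values are so close to 0 that their order carries no information and no fold is given. As for LOC780876, a division of reads between similar transcripts was not tested, so this member is uncertain. Without LOC112445785 the median difference of the other 39 members was 1.26.

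LOC338050, for which the RefSeq table gives the synonym PCI, was at 0.489 FPKM in NC replicate 1, at 0 in NC replicate 2, and at 4.08 and 2.67 FPKM in KDM5_KD. ZNF385B, a zinc finger gene, had 0.810 and 0.359 against 3.11 and 3.87 FPKM. TANGO2, whose name comes from a screen for transport and Golgi organization, had 0.979 and 0.623 against 3.02 and 4.96 FPKM. CYYR1, a gene for a small membrane protein, was at 0.744 and 0.548 against 2.97 and 3.48 FPKM. The membrane protein gene TMEM98 was at 0.751 and 0.181 against 1.58 and 3.16 FPKM, with KDM5_KD replicate 1 barely above the limit. PLGRKT, a plasminogen receptor, was at 0.735 and 0.4003 against 2.76 and 2.30 FPKM. SH3BGRL, of a family of small thioredoxin-like proteins, was at 0.996 and 0.758 against 3.20 and 3.04 FPKM and had the highest NC mean of all 40.

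The gap between the control libraries varied among the members. The rule fixed its direction but not its size. NC replicate 1 was at least 2 times NC replicate 2 in 21 members and less than 1.2 times in 6. SEPTIN10 (0.70 on the log2 scale), CASP4 (0.68) and ALCAM (0.64) had the widest gaps, and LOXL4 (0.02) and GPX8 (0.04) the narrowest besides LOC112445785. Control replicate 1 was at 0.7 FPKM or more in 27 members and control replicate 2 in 4, and replicate 2 was under 0.1 FPKM in 5. The position of NC replicate 1 on the way from NC replicate 2 to the knockdown mean, on the log2(FPKM + 1) scale, had a median of 21.0% and reached 45.2% in CASP4 and 45.1% in OAS1Z. By role its median was 33.5% for signals and immune genes, 34.0% for the cytoskeleton, 15.1% for matrix and adhesion and 9.81% for mitochondria and metabolism. In the 363 other NM rows with a difference of at least 1 and a mean of at least 1 FPKM, NC replicate 1 was the higher control in 326 (89.8%) and the median position was 42.8%. The limit of 1 FPKM on NC replicate 1 caps this position in the members, so the medians are given side by side only.

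Leaving out a control library showed how much the selection rests on each. With NC replicate 2 as the only control, and no condition on their order, 219 rows met the rule, including all 40. With NC replicate 1 as the only control, 48 rows met it, of which 27 were members. The selection without KDM5_KD replicate 2, the library with the conflicting treatment label, gave 58 rows and kept 37 of the 40. Without KDM5_KD replicate 1 it gave 60 rows and kept 35.

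**Figure D2:**
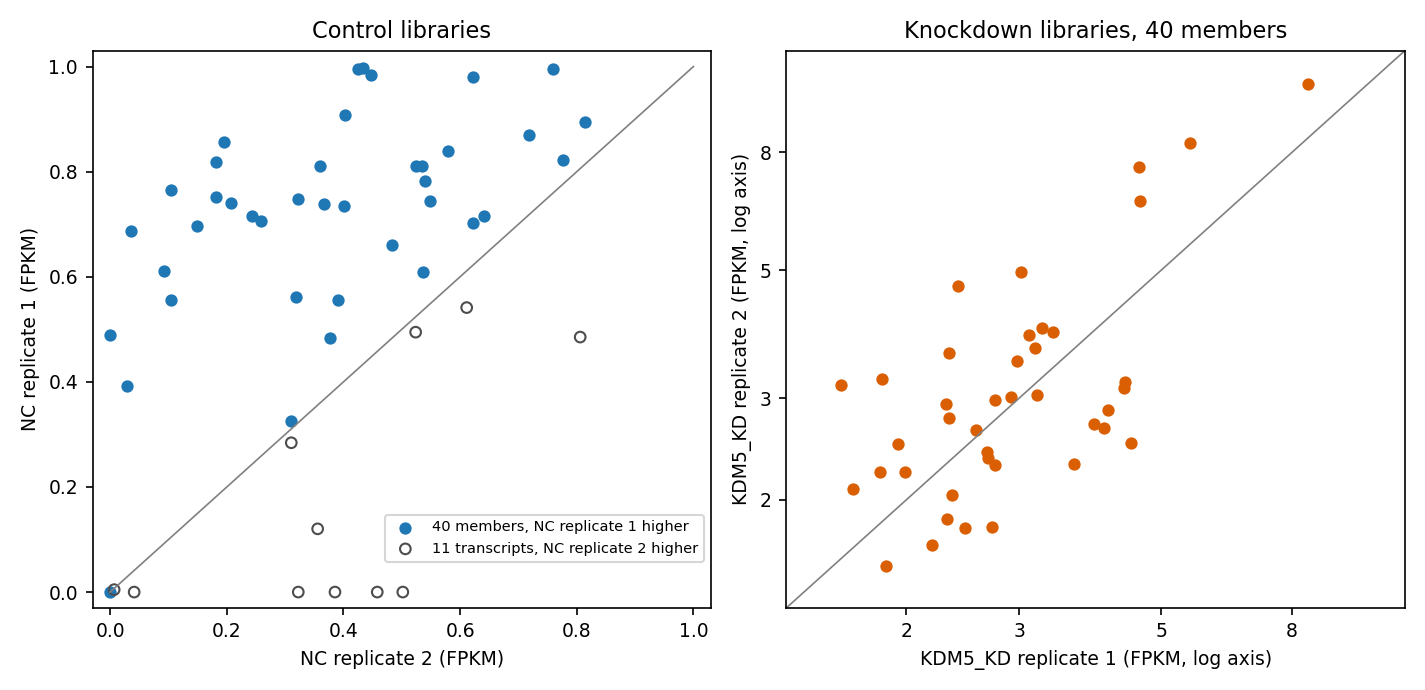
Left, NC replicate 1 against NC replicate 2 in FPKM for the 40 members (filled) and the 11 transcripts that meet the rule with the control order reversed (open), with the line of equality; right, KDM5_KD replicate 2 against replicate 1 in FPKM for the 40 members on log axes. The members lie above the line on the left by the rule, 27 of them at 0.7 FPKM or more in NC replicate 1, and on both sides of it on the right, 23 above and 17 below.

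The rule did not fix the order of the knockdown libraries. Of the 40 members, 23 were higher in KDM5_KD replicate 2 and 17 in replicate 1 (57.5% in replicate 2). Among the 3978 NM rows with both knockdown libraries at 1.5 FPKM or more and a knockdown mean under 12 FPKM, 61% were higher in replicate 2. The median size of the difference between the knockdown libraries was 0.25 in the members and 0.21 in that set. A single library against another has no replicate check, so these are descriptions. SERPINA11, TMEM98 and LOC112445785 had the largest excess in replicate 2, and DMAC1, GREM1 and LOC338050 in replicate 1. The library with the conflicting label was therefore neither regularly above nor regularly below the other.

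Members were set beside the other genes of their families, which were chosen after the members were known and get no test. SEPTIN10 (1.75) stood beside 11 other septin rows with differences from -0.01 to 0.67. SERPINA11 (1.88) stood beside 8 other rows with a SERPINA symbol, all under 1 FPKM in every library and between -0.09 and 0.05. Families were matched by symbol, so the member LOC338050 (1.82), with the synonym PCI, was placed in none of them. Of 2 other syndecans, SDC2 and SDC3 were well expressed in NC at 12.8 and 13.3 and at 11.1 and 7.11 FPKM, with differences of -0.40 and 0.32. Among cyclophilins PPIB, the form resident in the endoplasmic reticulum, had 35.2 and 37.2 FPKM in control embryos and 69.3 and 70.3 FPKM in KDM5_KD (0.93), while PPIA, the cytosolic form, had a difference of 0.04.

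Other families held several raised rows. Of 10 other annexins, 4 had a difference of at least 1. The largest was that of ANXA1, at 8.87 and 1.34 FPKM in control embryos and 20.2 and 18.1 FPKM in KDM5_KD (2.07). Both CDH2 (1.83) and CDH8 (1.17) had a difference above that of CDH11 (1.12), whereas CDH1, the cadherin of the early embryo, was at 126 and 166 FPKM in control embryos and 127 and 135 FPKM in KDM5_KD. In the lysyl oxidases LOXL3 (1.06) and LOXL2 (0.85) lay close to LOXL4 (1.12), and LOX was at 0.04. The difference of LOXL1 (0.93) rested on KDM5_KD replicate 2 alone. It was at 0.482 and 0.176 FPKM in control embryos and at 0.328 and 3.73 FPKM in KDM5_KD. The cytosolic peroxidase gene GPX1 was at 7.84 and 3.32 FPKM in control embryos and at 12.9 and 18.3 FPKM in KDM5_KD, a difference of 1.41 beside 1.37 for GPX8 and 1.26 for GPX7. Across the transcripts tested in the whole table, 4.52% had a difference of at least 1.

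**Figure D3:**
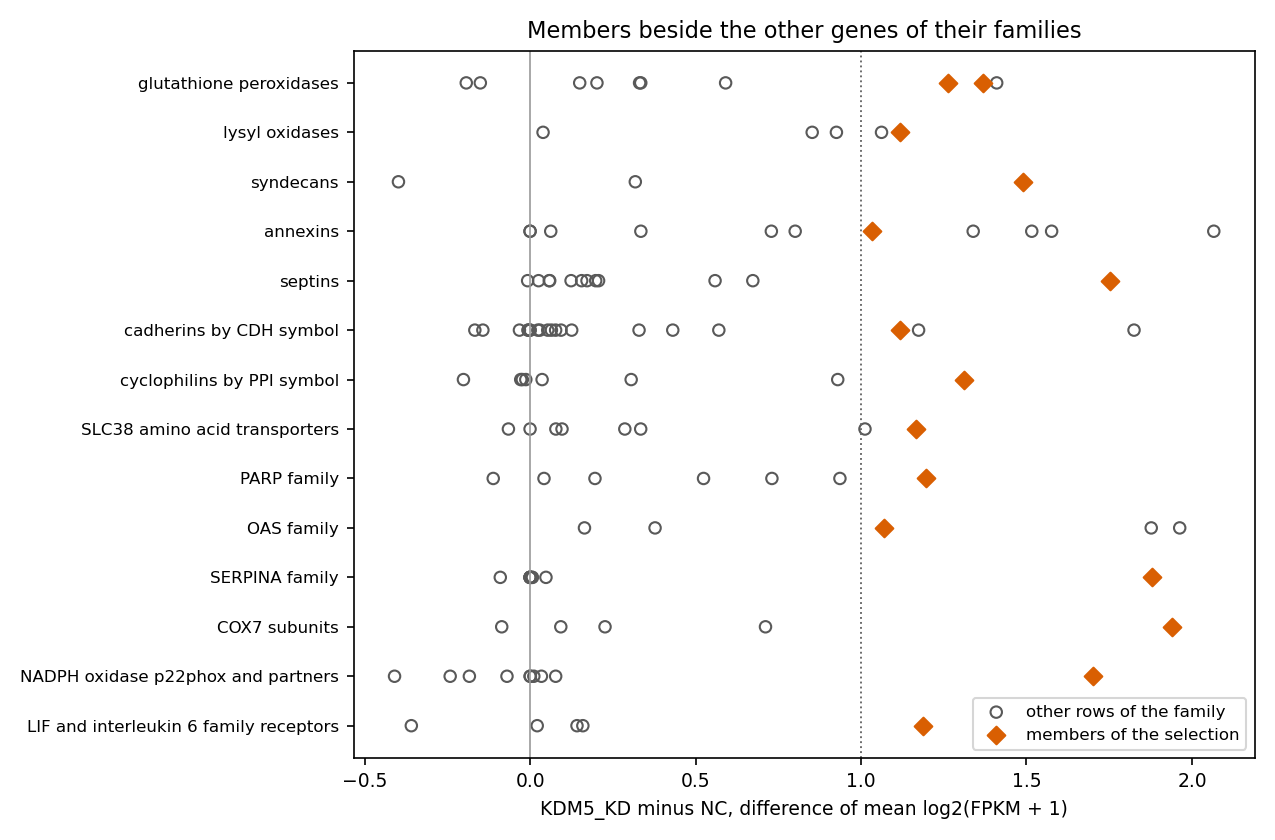
Difference between KDM5_KD and NC means of log2(FPKM + 1) for members (filled diamonds) and for the other rows of the same family (open circles), with 0 (solid line) and the rule's limit of 1 (dotted line). Septins, syndecans, cyclophilins, PARP, SERPINA, COX7, NADPH oxidase and LIF receptor genes have no other row at or above 1. Annexins have 4, cadherins and OAS genes 2 each, and glutathione peroxidases, lysyl oxidases and SLC38 genes 1 each. Families are matched by symbol, so LOC338050 is in none.

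The members were compared with lists of marker genes. The cumulus and granulosa list held 2 members, VCAN and GREM1, the interferon list held OAS1Z and the muscle list ACTC1. No member was in the lists for trophectoderm and epithelium, fibroblasts and stroma, endothelium and blood, neurons, germ line and sperm, or the H3K4 methylation machinery. Of 45 genes on the interferon list 32 were in the table as 33 rows. Both knockdown libraries were above both NC libraries in 23 of these rows and below in none, beside 31.5% above and 12.7% below among all NM rows. OAS1Z is among the 23 by the rule. Without OAS1Z the summed level of the interferon list was 294 and 124 FPKM in control embryos and 611 and 617 FPKM in KDM5_KD. The sums thus had the order of the members, with NC replicate 2 lowest, NC replicate 1 next and the knockdown libraries highest.

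Of the 28 cumulus and granulosa rows, 20 had both knockdown libraries above both NC libraries and none had them below. Among all NM rows 31.5% were above and 12.7% below. VCAN and GREM1 are among the 20 by the rule. Without VCAN and GREM1 the summed level of the list was 64.2 and 42.9 FPKM in control embryos and 122 and 109 FPKM in KDM5_KD. INHA, a subunit of the granulosa cell hormone inhibin, was at 1.19 and 0.489 against 3.67 and 2.91 FPKM, and CD44, a hyaluronan receptor, at 3.44 and 3.11 against 9.94 and 8.26 FPKM. The defining granulosa genes FSHR, CYP19A1 and LHCGR were under 0.1 FPKM in all 4 libraries. FSHR is still among the 20, at 0 in both NC libraries and at 0.0216 and 0.0443 FPKM in KDM5_KD. TNFAIP6, AMH and PGR did not share the order, with differences of -0.05, -0.42 and -0.05.

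The fibroblast and stromal list, which held no member, had both knockdown libraries above both NC libraries in 17 of its 23 rows and below in 1. Among all NM rows these shares were 31.5% and 12.7%. The summed level of the list was 431 and 189 FPKM in control embryos and 946 and 868 FPKM in KDM5_KD. TAGLN, an actin-binding protein of smooth muscle and stromal cells, was at 37.99 and 5.30 against 85.7 and 95.6 FPKM, and VIM, the intermediate filament vimentin, at 35.6 and 8.09 against 84.6 and 98.1 FPKM. TGFBI, the row below, was at 19.8 and 28.9 against 14.8 and 16.7 FPKM. PDGFRA had a difference of 0.15. LUM (1.87) had NC replicate 2 as the higher control, at 4.02 and 5.12 FPKM in NC. FAP, a marker of activated fibroblasts, was listed at 0 in all libraries. The muscle list without ACTC1 summed to 109 and 69.1 FPKM in control embryos and 180 and 166 FPKM in KDM5_KD. However, only 7 of the 22 muscle rows had both knockdown libraries above both NC libraries, near the share of all NM rows, and 3 had them below. ACTC1 is among the 7 by the rule. MYL6, a myosin light chain also made outside muscle, took most of the sum, at 56.3 and 41.1 against 103.7 and 104.3 FPKM. CSRP3 was at 8.75 and 2.97 against 28.2 and 26.1 FPKM (2.18), and MYL9 at 10.7 and 1.23 against 20.7 and 12.5 FPKM (1.75). In contrast MYOD1, a muscle transcription factor, was at 19.9 and 11.1 against 12.3 and 8.44 FPKM. The list had 6 rows at 0 in every library, MYL2 and TNNT2 of heart muscle among them. The endothelial and blood list summed to 52.8 and 34.1 FPKM in control and to 67.0 and 62.1 FPKM after knockdown, with 6 of its 25 rows above and 4 below. HBA, an alpha globin gene, was at 31.5 and 5.08 against 38.3 and 33.1 FPKM. Its control gap was wider than that of the list sum. Without HBA the sum was thus lower in NC replicate 1 than in NC replicate 2. At 6 of 25, the rows above fell short of the 31.5% of all NM rows. In this list 8 rows were under 0.1 FPKM in all libraries, including PTPRC and PECAM1. The neuronal list had nearly equal control sums of 144 and 145 FPKM, against 185 and 196 FPKM, with 12 of its 20 rows above and 1 below. The part of other cell types in the levels of the members was not tested.

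Lists without this order were also present. The trophectoderm and epithelial list summed to 926 and 1150 FPKM in control embryos and to 992 and 1050 FPKM in KDM5_KD, and 4 of its 22 rows were above and 5 below. The germ line and sperm list summed to 84.2 and 92.9 FPKM in control embryos and to 107 and 92.4 FPKM in KDM5_KD. Of the 21 genes of the H3K4 machinery 11 were in the table. None of them had both knockdown libraries above both NC libraries and 5 had both below, the targets KDM5A and KDM5C included. Among all NM rows 31.5% were above and 12.7% below.

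**Figure D4:**
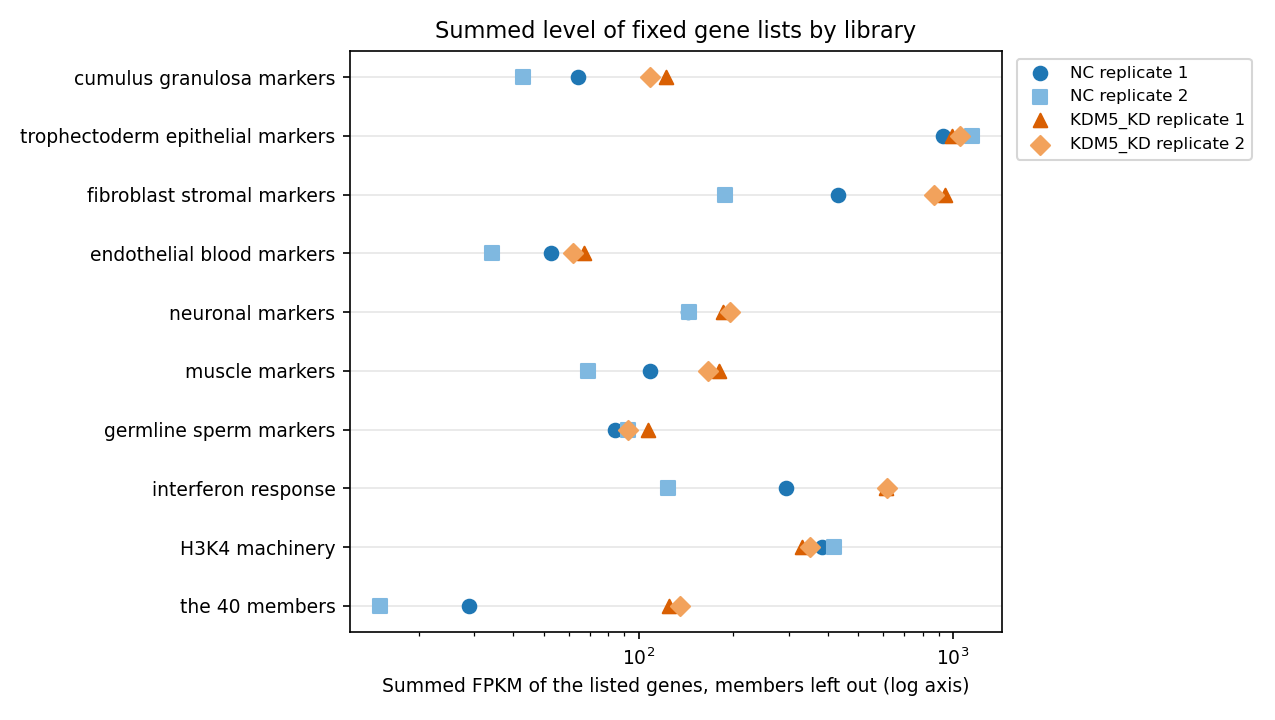
Summed FPKM per library (log axis) of the 9 fixed gene lists with members left out, and of the 40 members in the bottom row; circles and squares are NC replicates 1 and 2, triangles and diamonds KDM5_KD replicates 1 and 2. The cumulus, fibroblast, muscle, interferon and endothelial and blood lists show NC replicate 2 lowest, NC replicate 1 next and the knockdown libraries highest, as the members do by their rule. The neuronal, trophectoderm, germ line and H3K4 lists do not. In the endothelial and blood list the order of the NC sums rests on HBA.

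By symbol family the members were spread widely. The 11 families of symbols searched held between 0 and 2 members each. Actin, myosin and adhesion genes had 2 (ACTC1 and CDH11) among 156 rows, and proteases and their inhibitors 2 (CASP4 and SERPINA11) among 145. No member was a keratin, or a homeobox, SOX, forkhead, T-box, KLF or GATA factor, although 152 rows of such factors were in the table. Among 218 zinc finger rows ZNF385B was the only member. All NM rows together had 0.299% members.

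Neighbouring genes were read from the gene order of the RefSeq table for the assembly ARS-UCD2.0. The build behind the FPKM is not given in the sources used here, so no positions are printed. The table placed 39 members on a chromosome, and no member was the next protein-coding gene to another. ACTC1 and GREM1 had 3 protein-coding genes between them, and SERPINA11 and LOC338050 had 9. The nearest protein-coding neighbours included 29 genes that had a mean of at least 1 FPKM. Their median difference was 0.20, beside 0.09 for all NM rows with that mean. Of the 29, 15 (51.7%) had both knockdown libraries above both NC libraries, beside 35.1% of all transcripts tested. A difference of at least 1 was seen in 5 of the 29 (17.2%), beside 4.52% in the table. These were CCT6A next to SUMF2 (2.44), OAS1X next to OAS1Z (1.96), MVD next to CYBA (1.39), APP next to CYYR1 (1.36) and CDH8 next to CDH11 (1.17). CCT6A, a chaperonin subunit gene, was at 19.1 and 0.105 FPKM in control embryos and at 22.9 and 26.4 FPKM in KDM5_KD, so NC replicate 2 alone was low. The 29 also include CDC20B and DTX3L, which overlap members, and OAS1X, a paralog that may share reads with OAS1Z. They are thus not all independent of the members.

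The annotation of 5 members overlapped that of another protein-coding gene, and the protocol does not state that strands were kept, so reads of such partners cannot be told apart where their exons meet. GPX8 lies within the span of CDC20B, a relative of the cell cycle gene CDC20, which was at 15.4 and 15.5 FPKM in control embryos and at 1.54 and 1.95 FPKM in KDM5_KD. The host gene was thus lower where GPX8 was higher. PARP9 overlaps DTX3L, whose product forms a complex with PARP9 and which was at 2.33 and 0.952 against 3.56 and 4.09 FPKM. SUMF2 overlaps PHKG1, at 0.730 and 1.72 against 0.662 and 0.583 FPKM. TPMT overlaps the histone demethylase gene KDM1B, and ZNF385B overlaps unnamed genes. These last partners are not analysed here. Without these 5 members the median difference of the other 35 was 1.26.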

How the data were processed

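The authors deposited FPKM per RefSeq accession, 1 column for each library, and per the submitters' processing notes Trimmomatic, HISAT2, featureCounts and Cufflinks were used. Versions and the genome build are not given in the sources used here. RefSeq's ARS-UCD2.0 gene list supplied symbols for 14295 of 14517 accessions. Members were chosen by the stated rule, and the members and lists were chosen with earlier results of these data known. A log2 difference is that of group means of log2(FPKM + 1), which understates changes of low transcripts. For the background, limma 3.58.1 (R 4.3.3, eBayes with trend, Benjamini-Hochberg adjustment) was fitted to the 8970 transcripts with a mean of at least 1 FPKM in the 4 libraries, without covariates, and checked on simulated data. The labels do not say that the libraries came from separate embryo pools, so its p-values measure only the spread between these libraries. All 40 members are given with values. The named-gene rule covered the 15 members highest in the knockdown, list members, the extremes of each gap and the rows beside the limits. The other members, family genes, list genes, neighbours and TRH were named after their values were seen. Alternatives were other limits, pseudocount, scalings, filters, variance models, the replicate block and each library left out. Leaving out rows in doubt, and rows at 0 throughout in the unfiltered fit, was added after the data were seen. Tables and plots were made in Python 3.11.15 (numpy 2.4.6, pandas 2.3.3, matplotlib 3.10.9).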

Additional observations from a re-analysis of the deposited data

How the results depend on the processing

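The number of members followed the limits. It was 5 with both NC libraries under 0.5 FPKM, 98 with both under 2 FPKM, 12 with both KDM5_KD libraries at 3 FPKM or more, 82 with a pseudocount of 0.1, 15 after quantile normalization and 11 with the control order reversed. The 5, 12 and 15 rows were all among the 40. Selections that left out a library gave between 48 and 219 rows, the last without NC replicate 1. With both KDM5_KD libraries at 1 FPKM or more (49), median-ratio scaling (32), a common sum without microRNA rows (42) and rows summed by symbol (40) the count stayed within 1.5 times.

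The median difference of the 40 was 2.18 with a pseudocount of 0.1 and 1.03 after quantile normalization, and between 1.12 and 1.44 with a library left out. The median control gap was 0.79 with a pseudocount of 0.1, against 0.33. After quantile normalization 33 of the 40 kept NC replicate 1 above replicate 2. No member changed sign under the pseudocount or the 3 scalings. KDM5_KD replicate 2 was above replicate 1 in 21 to 23 members under these settings.

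In the limma fit 17 transcripts were higher and 8 lower, 3 of the higher being members. Without a filter 2 were higher and 1 lower, with 0 members, where 1897 of 12687 transcripts had an unadjusted p under 0.05. A mean of at least 5 FPKM gave 11 higher with 1 member, and only 1 member was then tested. Without a trend 6 were higher, and with robust eBayes 37. Replicate numbers are shared between the groups, and deviations correlated at 0.229 between libraries with the same number, which with 2 pairs does not show pairing. Adding a replicate block gave 8 higher, 4 lower and 1 member. With a library left out between 3 and 323 were higher, between 3 and 17 lower and between 0 and 18 were members, with 323 higher and 18 members without NC replicate 1, and 0 members without KDM5_KD replicate 1 or 2, where 1156 and 770 transcripts had an unadjusted p under 0.05. The lone library is then assumed to vary like the other group. The causes were not tested. Promoter sequences were not analysed here, so the planned comparison of their CpG content was not run. Depth limits the low control values most, and no detection limit can be given without read counts.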
